A study of Mus musculus with 12 samples.

Results

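Chromatin accessibility after 1 hour of estradiol (E2, 10 nM) was compared with that after vehicle in primary hernia-associated fibroblasts (HAFs). The comparison used 6 of the 12 ATAC-seq libraries of the series, chosen by their treatment labels, with 3 libraries given E2 and 3 given vehicle (ethanol and DMSO). All cells came from the lower abdominal muscle of Aromhum mice, a strain with the human aromatase gene, and were labelled as skeletal muscle fibroblasts. The paper states that male mice were used. Both groups were passaged once, starved overnight in serum-free medium without phenol red, and held in DMSO for 3 hours before E2 or ethanol was added. The methods and labels used here give neither the ages of the animals nor whether the libraries came from separate animals or cultures, so p-values measure the spread between these libraries, which may be technical.

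ATAC-seq uses a transposase that inserts sequencing adapters where DNA is not wrapped tightly in nucleosomes. Estradiol binds estrogen receptor alpha, the product of Esr1, and the receptor then binds palindromic estrogen response elements (EREs), single half-sites, or sites held by other factors such as AP-1. Receptor binding recruits coactivators such as Ncoa2 and remodels chromatin mostly away from promoters. Greb1 and Pgr are classical targets of the receptor. In muscle fibroblasts of this mouse model, estrogen made locally by aromatase is linked to fibrosis, and matrix, TGF-beta, WNT and Hedgehog genes were therefore listed beside the estrogen targets.

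The peaks of the 6 lists on chromosomes 1-19 and X were merged, wherever they overlapped or touched, into 302093 regions, and a region counted as called in a library if it held a peak of that library. A total of 250104 regions were called in 1 library and 977 in all 6. On the E2 side, 3342 regions (1.11% of all) were called in at least 2 of 3 E2 libraries and in 0 of 3 vehicle libraries. On the vehicle side, 7060 regions (2.34%) met the mirrored rule. All 3 libraries of the side called 162 of the first and 247 of the second. Calling in 1 library was thus the commonest state of a region, and calling in all 3 libraries of one treatment with none of the other was rarer than calling in all 6.

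**Figure D1:**
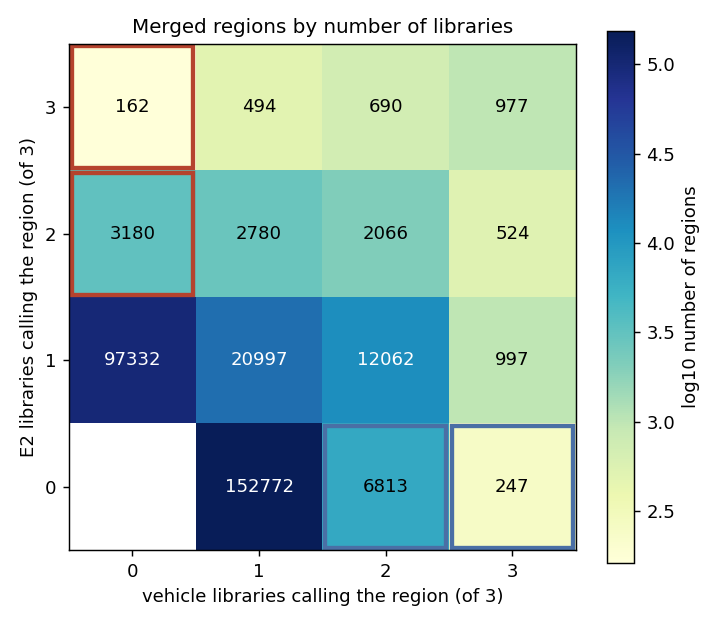
Number of merged regions by how many E2 libraries (vertical axis, 0 to 3) and how many vehicle libraries (horizontal axis, 0 to 3) called them, with color on a log10 scale. Red frames mark the E2 side (3180 and 162 regions) and blue frames the vehicle side (6813 and 247), and the cell for 3 and 3 holds 977.

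The sequences under the best-ranked vehicle-side regions are shown because they bear on what a one-sided call is. Regions were taken in order of their lowest percentile rank of fold enrichment, except that a region in the UTR of Elf5 is not printed. Each runs for 300 bases around the summit, on the + strand of mm10 (GRCm38). Capitals mark the ERE half-site (GGTCA or TGACC) and the hexamer of telomeric DNA (CCCTAA or TTAGGG).

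Vehicle-side intergenic region of chromosome 15, chr15:56400756-56401055: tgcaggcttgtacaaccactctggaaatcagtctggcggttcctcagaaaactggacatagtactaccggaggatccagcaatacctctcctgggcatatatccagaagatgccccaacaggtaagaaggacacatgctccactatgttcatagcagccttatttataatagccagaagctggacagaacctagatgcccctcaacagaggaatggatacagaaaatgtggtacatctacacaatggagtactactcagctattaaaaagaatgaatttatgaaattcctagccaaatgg

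Vehicle-side region in an intron of Frmd6, chr12:70896718-70897017: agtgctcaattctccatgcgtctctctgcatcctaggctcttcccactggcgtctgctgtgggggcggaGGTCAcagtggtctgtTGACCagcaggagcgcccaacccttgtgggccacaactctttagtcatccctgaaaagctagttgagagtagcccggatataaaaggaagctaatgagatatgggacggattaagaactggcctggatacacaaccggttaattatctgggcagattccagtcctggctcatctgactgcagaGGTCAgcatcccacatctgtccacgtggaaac

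Vehicle-side region nearest Vmn2r117, chr17:23513653-23513952: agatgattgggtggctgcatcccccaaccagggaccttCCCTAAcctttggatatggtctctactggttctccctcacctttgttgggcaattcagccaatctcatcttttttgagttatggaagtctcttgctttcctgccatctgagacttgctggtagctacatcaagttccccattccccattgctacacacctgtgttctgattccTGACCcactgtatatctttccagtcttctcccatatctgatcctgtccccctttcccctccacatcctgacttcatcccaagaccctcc

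The region on chromosome 15 was masked as repeat over 100% of its length, whereas the one in Frmd6 was masked over 0% and carried 3 ERE half-sites.

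Telomere-like DNA was frequent among the best-ranked regions shared by every library. Among the 8 regions with the highest lowest rank over all 6 libraries, 7 held at least 3 tandem copies of the hexamer within 100 bp of the summit. Of the 302093 regions, 174 (0.0576%) held such tandem copies, and 93 of these 174 were among the 977 called in all 6 libraries (9.52% of them). The E2 side held 7, of which 4 were among the 162 regions called in all 3 E2 libraries. The vehicle side held 0 of 7060, which allows a share of up to 0.0425%. This motif was searched after the sequences had been read.

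The peak lists differed among libraries within each treatment. E2 replicates 1, 2 and 3 had 78564, 47408 and 30505 peaks, and vehicle replicates 1, 2 and 3 had 77163, 109449 and 43253. The groups overlapped, and the log2 difference of E2 from vehicle was -0.56 (p = 0.50, two-sided exact permutation test on 3 libraries per group). With 3 libraries against 3, no such test can go below 0.10. Peaks with q of 0.05 or less made up 38.7%, 7.21% and 8.14% of the E2 lists and 17.8%, 15.9% and 46.1% of the vehicle lists. Median fold enrichment of the 1000 highest peaks was 13.2, 5.24 and 5.39 with E2 and 9.84, 6.88 and 13.5 with vehicle. E2 replicate 1 and vehicle replicate 3 were therefore the strongest lists, and they were also the most alike of the 15 pairs, sharing 17.6% of the regions that either called. Pairs of one treatment shared 6.49% on average (6 pairs), pairs with one replicate number 7.69% (3 pairs) and the other pairs 7.07% (6 pairs). The background recovered from the lists, which is proportional to depth, was 1.25, 1.14 and 0.979 tags per window with E2 and 0.713, 0.799 and 1.02 with vehicle. The part of list strength and of depth in the one-sided calls was not tested.

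**Figure D2:**
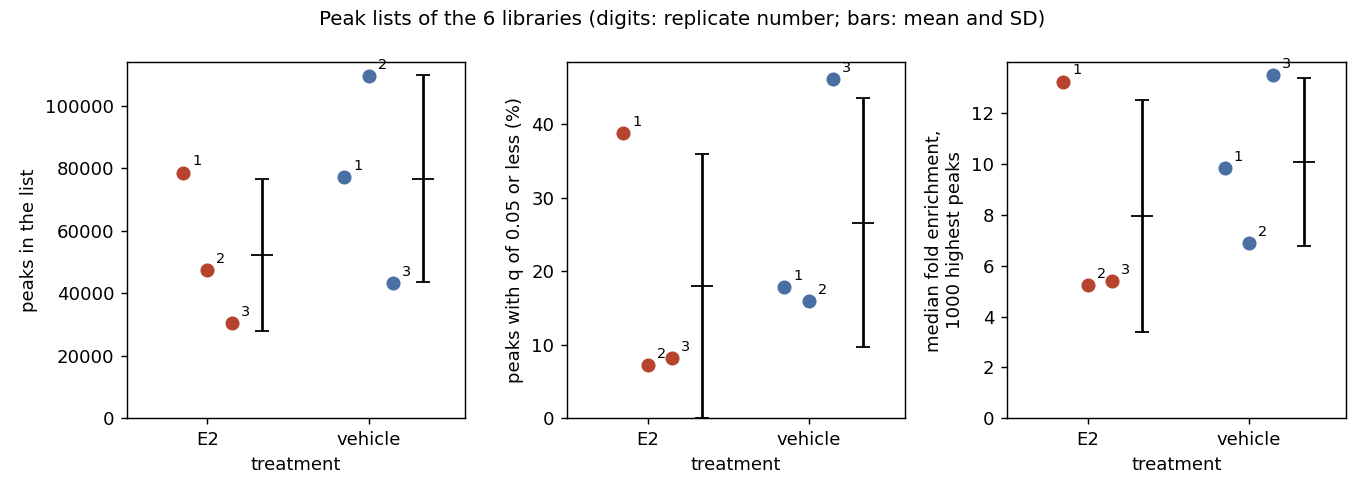
Peaks per list, share of peaks with q of 0.05 or less (%) and median fold enrichment of the 1000 highest peaks for E2 (red) and vehicle (blue) libraries, each point a library with its replicate number, with the mean and SD (n = 3) in black. The treatments overlap in all 3 panels, and E2 replicate 1 and vehicle replicate 3 lie highest in the middle and right panels.

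Small numbers of tags stood behind the one-sided calls, as behind the lists as a whole. On the E2 side, the median peak had 6 tags at its summit in each of the 3 E2 libraries, against 12, 10 and 10 at regions called in all 6. On the vehicle side, the medians were 4, 5 and 6 tags, against 8, 11 and 9. Over all listed peaks with recovered tags the medians were the same, at 6 in each E2 library and 4, 5 and 6 with vehicle. The smallest pileup that was listed was 4 tags in the E2 libraries and in vehicle replicate 3, and 3 tags in vehicle replicates 1 and 2. The median one-sided peak thus stood 1 or 2 tags above the smallest listed pileup of its library. Of the 3342 E2-side regions, 118 passed q of 0.05 in at least 2 libraries and 5 in 3. Of the 7060 vehicle-side regions, 342 and 3 did so. At this depth, absence from a list does not show that a region was closed.

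Counts on the 2 sides changed with the peaks and libraries that were used. With the 20000 highest peaks of every list, the E2 side held 1023 regions and the vehicle side 1152. Among peaks with q of 0.05 or less, the counts were 301 and 821. When a library was left out, both remaining libraries of its treatment had to call the region, and the E2 side fell to 892, 1123 and 1651 regions without E2 replicates 1, 2 and 3, whereas the vehicle side fell to 1662, 1787 and 4105 without vehicle replicates 1, 2 and 3. Leaving out a library of the opposite treatment relaxed the rule, and the E2 side rose to 5496 without vehicle replicate 2 and the vehicle side to 18687 without E2 replicate 1. Regions with over 50% of the bases within 100 bp of the summit masked as repeat made up 38.4% of the E2 side and 27.9% of the vehicle side, and 2058 and 5092 regions were left without them.

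Whether the one-sided regions carried over to libraries not used to choose them was examined by holding out each replicate number in turn. Regions called in both remaining libraries of one treatment and in neither of the other were read in the held-out E2 and vehicle libraries. With number 2 held out, 2154 E2-side regions were called in 24.5% of cases in E2 replicate 2 but in 47.9% in vehicle replicate 2. With number 1 held out, the 1078 E2-side regions were called at 21.8% in E2 replicate 1 and 17.3% in vehicle replicate 1, and the 3100 vehicle-side regions at 46.4% and 36.5%. With number 3 held out, the shares were 11.3% and 14.6% for 1934 E2-side regions and 9.02% and 6.85% for 4512 vehicle-side regions. With number 1 held out the E2 library called more of both sets, and with number 2 the vehicle library did. With number 3, each library called more of the regions of the opposite treatment.

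**Figure D3:**
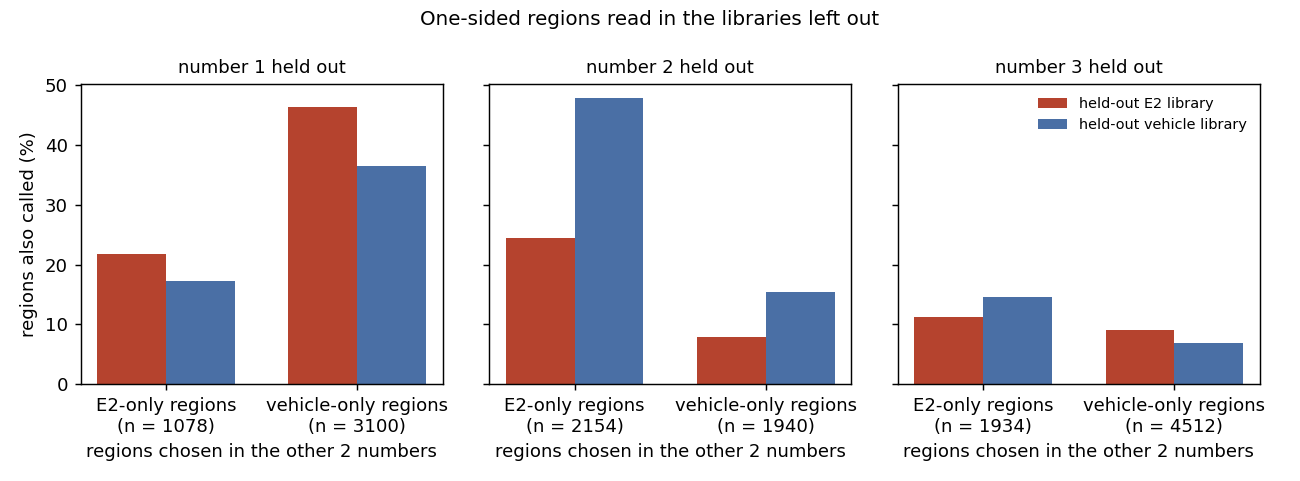
Share (%) of E2-side and vehicle-side regions, chosen in 2 replicate numbers, that were also called in the held-out E2 library (red) and held-out vehicle library (blue), 1 panel for each held-out number. With numbers 1 and 2 both region sets were called more often in one held-out library, E2 and vehicle respectively, whereas with number 3 the 2 sets went opposite ways.

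To allow for the length of the held-out list, the share of E2-side regions called was divided by the share of vehicle-side regions called in the same library, and this log2 ratio in the E2 library was set against that in the vehicle library. A positive difference would mean that E2-side regions recurred more in the E2 library. The differences were -0.01, -0.01 and -0.77 with numbers 1, 2 and 3 held out, with a mean of -0.26 ± 0.44 (SD, n = 3, exact sign-flip test, two-sided, p = 0.25, the smallest it can give). None of the 3 was positive. Among peaks with q of 0.05 or less, the mean turned to 0.21 (exact sign-flip test, p = 0.25, n = 3).

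The same regions were then read in the 6 libraries given fulvestrant (100 nM), an estrogen receptor antagonist and degrader, of which 3 also had E2. These libraries took no part in choosing the regions, and 41.9% of the E2-side and 40.8% of the vehicle-side regions were called in at least 1 of them. The share over all merged regions was not computed, so whether these 2 shares differ from it is not known. The log2 ratio of the share of E2-side to that of vehicle-side regions was -0.24, 0.97 and 0.66 in the E2 plus fulvestrant libraries and -0.28, 0.61 and 0.64 in those with fulvestrant alone. Number 1 was below 0 and numbers 2 and 3 above 0 in both groups. The means were 0.46 ± 0.63 and 0.32 ± 0.52 (SD, n = 3), and their difference of 0.14 was smaller than either SD (p = 0.50, two-sided exact permutation test on 3 libraries per group). It turned negative without E2 plus fulvestrant replicate 2 (-0.12) and without fulvestrant replicate 1 (-0.16). Both groups had the antagonist, so this comparison cannot show whether the regions respond to E2 without it.

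**Figure D4:**
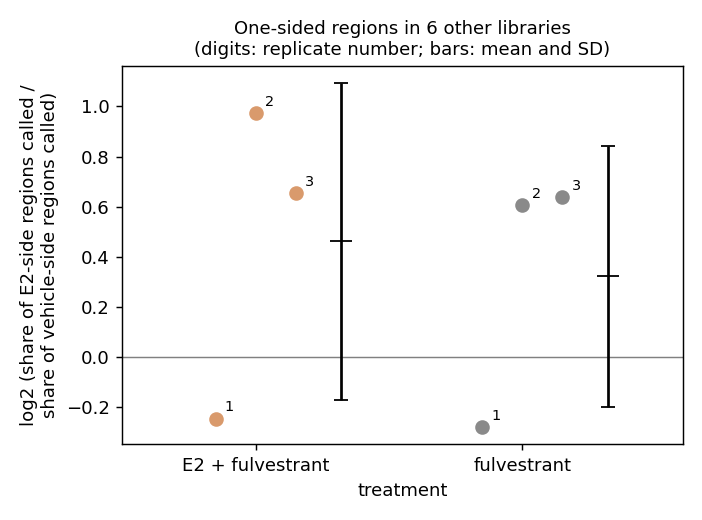
Log2 ratio of the share of E2-side regions called to the share of vehicle-side regions called, in each E2 plus fulvestrant library (orange) and fulvestrant library (grey), labelled by replicate number, with the mean and SD (n = 3) in black. Number 1 lies below 0 and numbers 2 and 3 above 0 in both treatments.

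Ranks of the regions called in all 6 libraries did not separate E2 from vehicle. For these 977 of the 302093 regions, percentile ranks of fold enrichment were turned into normal scores and fitted with limma. They are not typical of all regions, as 51.4% had over 50% of the bases around the summit repeat-masked, against 25.9% of all. The ERE half-site was found in 21.6% of them, against 32.4% of all regions. None was called (0% at an adjusted p under 0.05), 46 had an unadjusted p under 0.05, and the smallest adjusted p was 0.938 (limma). Ranks agreed between libraries with Spearman correlations from 0.587 to 0.757 over these regions, which share depth and base composition within a library.

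Although none passed, the regions with the smallest p are given by their values. An intronic region of the splicing factor gene Srsf4 stood at percentiles 91.8, 98.4 and 96.9 with E2 and 73.5, 89.4 and 24.5 with vehicle, which is a difference of 1.04 ± 0.25 (SE) on the normal score scale (limma, adjusted p = 0.938). An intergenic region 23034 bp from the start site of Fam107a stood at fold enrichments of 10.2, 11.3 and 8 with E2. With vehicle they were 3.50, 6.67 and 4.46, so the groups did not overlap. In the other direction, an intronic region of Efcab6 stood at fold enrichments of 3.72, 3.20 and 3.98 with E2 and 4.81, 5.86 and 4.66 with vehicle (difference -1.02 ± 0.25, SE, limma adjusted p = 0.938). Both groups were again apart, as the choice by p makes likely. The remaining regions with the smallest p lay in Snhg14, Rab7 and an intergenic stretch of chromosome 12 on the higher side, and near Gm10553, Ttc4, Sspn and in chromosome 16 on the lower side.

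The location of one-sided regions was close to that of all regions. Midpoints lay within 3000 bp of a start site in 21.8% of E2-side regions (95% Wilson interval 20.4% to 23.2%) and 22.2% of vehicle-side regions (21.2% to 23.2%), against 22.1% of all regions. The Wilson intervals cover counting error only. Repeat-masked bases around the summit averaged 41.4% on the E2 side, 31.7% on the vehicle side and 30.3% over all regions. In regions called in 3 of 3 they averaged 61.0% on the E2 side and 40.1% on the vehicle side. Regions called in all 6 libraries averaged 49.9%.

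Around each summit, 100 bp to either side were searched for motifs on both strands. The full ERE (GGTCANNNTGACC) was found in 0 of 3342 E2-side regions, which allows a share of up to 0.0898%, in 0 of 7060 vehicle-side regions, and in 75 of all 302093 (0.0248%). The ERE half-site (GGTCA), which the full ERE contains, was found in 31.5% of E2-side, 32.3% of vehicle-side and 32.4% of all regions. AP-1 (TGAGTCA or TGACTCA) was found in 2.75% of E2-side regions (95% Wilson interval 2.25% to 3.36%), 5.14% of vehicle-side regions (4.65% to 5.68%) and 4.09% of all regions. The PLAG1 element was found in 5.36%, 6.18% and 6.01% of them, and the CTCF motif in 0.120%, 0.411% and 0.238%. AP-1 was unevenly spread over the vehicle side. Among regions called in vehicle replicates 1 and 3 alone it was found in 9.94% and promoters made up 33.1%, whereas the other patterns of libraries on either side held AP-1 in 2.29% to 5.16%.

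The best-ranked E2-side regions were mostly repeats. Of the 10 with the highest lowest percentile, all called in 3 of 3 E2 libraries, 8 had over 50% of these bases masked and 7 were also called in at least 4 of the 6 fulvestrant libraries. The share of all merged regions called in at least 4 of these was not computed, here or for the vehicle side. First came an intergenic region 86252 bp from the start of Sema6d, a semaphorin gene, with fold enrichments of 5.77, 7.93 and 9.60 in the E2 libraries. It was called in 5 of the 6 fulvestrant libraries. The region in an intron of Adra1a, the alpha-1A adrenergic receptor gene, had 8, 13 and 9 tags and was also called in 5 of 6. The region in Rcor1, a corepressor gene, had 7, 8 and 12 tags and was called in 6 of 6. The other named regions lay in Rad51b, Laptm5, Fam91a1 and Gm29825, near C130079G13Rik and in intergenic DNA of chromosomes 9 and 13.

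On the vehicle side, 2 of the first 10 regions were mostly masked and 2 were called in at least 4 of the 6 fulvestrant libraries. After the chromosome 15 region, with 6, 7 and 11 tags, came a region at the promoter of Elf5 (chr2:103411836-103412513), an epithelial transcription factor gene, with fold enrichments of 3.50, 3.43 and 5.94 in the vehicle libraries. It was called in 1 of 6 fulvestrant libraries. The region in Frmd6 (chr12:70896679-70897372) had 5, 8 and 8 tags. A region in the coding sequence of Gpr19, an orphan receptor gene, had 5, 8 and 8 tags and was called in 0 of 6. The others lay in Gm38997, Thsd7a, Eipr1 and Coro1c and near Vmn2r117 and Zbtb10.

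Genes were assigned by the nearest protein-coding start site within 100 kb. Of 21646 protein-coding genes, 2138 (9.88%) had at least 1 E2-side region and 4077 (18.8%) at least 1 vehicle-side region. A promoter peak in at least 2 of 3 E2 and 0 of 3 vehicle libraries was found for 287 genes (1.33%), and the reverse for 886 (4.09%). A gene with many regions nearby has more chances of a one-sided one, so the lists are read by the share of their regions as well.

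The genes with the most E2-side regions were Rgs3, a regulator of G protein signaling, with 5, Gm21119, Ncoa2 and Trio with 4, and 4930467E23Rik, 1 of 31 genes tied at 3. Rgs3 and Trio had 1 vehicle-side region and Gm21119 had 4. Ncoa2, which encodes an estrogen receptor coactivator, had 0 vehicle-side regions among its 43 regions. One of its 4 E2-side regions, at chr1:13257832-13258364, was called in all 3 E2 libraries with 10, 10 and 6 tags, and also in 4 of 6 fulvestrant libraries. The Ncoa2 locus, the gene with 50 kb upstream, held 13, 12 and 7 peaks with E2 and 11, 14 and 8 with vehicle, so its total peak number overlapped between the treatments. On the vehicle side, Sptbn1 and St6galnac5 had 6 regions and no E2-side region, Gm10324 and Gm10772 had 6 beside 3 E2-side regions, and Cacna1b, 1 of 7 genes tied at 5, had 1 E2-side region.

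Estrogen target genes were counted first. Of 22 listed, 5 had an E2-side region (Esr1, Myc, Nrip1, Ret and Xbp1) and 8 a vehicle-side region. Of the 435 regions near these genes, 1.38% were E2-side and 2.30% vehicle-side, against 1.11% and 2.35% near all protein-coding genes. Greb1 had 0 E2-side and 1 vehicle-side region. Its locus held 13, 12 and 5 peaks with E2 and 13, 12 and 7 with vehicle. Pgr, the progesterone receptor gene, had neither kind of region, and its locus held 4, 0 and 1 peaks with E2 and 3, 6 and 3 with vehicle. Its promoter held a peak in E2 replicates 1 and 3 and in vehicle replicates 1 and 2. Around Esr1 the locus counts were 12, 16 and 9 with E2 and 7, 29 and 4 with vehicle, and both groups overlapped at each of these genes.

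Among 18 receptors and coregulators, 5 had an E2-side region and 6 a vehicle-side region, against 9.88% and 18.8% of all protein-coding genes. Of the 398 regions near them, 2.01% and 1.76% were of each kind, against 1.11% and 2.35% near all protein-coding genes. Ncoa2 held 4 of the 8 E2-side regions.

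Early response genes, which many stimuli induce within the first hour, were near the level of all genes by region. Of 18, 4 had an E2-side region (Egr3, Fos, Fosl2 and Myc) and 6 a vehicle-side region, and 1.23% and 2.45% of the 326 regions near them were of each kind, against 1.11% and 2.35% near all protein-coding genes. Promoters of all 18 held a peak in vehicle replicates 1 and 3, and 17 did in E2 replicate 1, against 7 in vehicle replicate 2 and 6 and 4 in E2 replicates 2 and 3. The corresponding numbers over all protein-coding genes were 11878 and 11234, 13096, 7766, 4222 and 2670, in that order. Ier2 was the nearest gene of 2 vehicle-side regions, neither within it. They lay in an intron of Cacna1a, 98509 bp from the Ier2 start site, and in a UTR of Nacc1, 7810 bp from it. The Ier2 locus held 5, 1 and 1 peaks with E2 and 6, 6 and 9 with vehicle, without overlap.

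In all, 8 of 248 listed genes had a locus with fewer peaks in every E2 library than in any vehicle library, which is the state of 698 of the 21646 loci (3.22%). They were Areg, Ier2, Acta2, Smad6, Ror2, Gli3, Cdk4 and Ccnl1. None of the 248 had more peaks in every E2 library, as 37 loci (0.171%) did. The listed genes were thus near the level of all loci in both directions. These counts were not scaled to list length, and the lists averaged 52159 peaks with E2 and 76622 with vehicle. At Acta2, the smooth muscle actin gene that marks myofibroblasts, the counts were 1, 0 and 1 with E2 and 3, 8 and 2 with vehicle, and the promoter held a peak in 0 of 3 E2 and 3 of 3 vehicle libraries. At Smad6, an inhibitor of SMAD signaling, they were 3, 4 and 3 against 7, 5 and 7. At Gli3, a Hedgehog transcription factor gene, they were 3, 2 and 1 against 7, 16 and 5. The smallest p an exact permutation test over 3 and 3 libraries allows is 0.10, and each of these loci is at it.

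Matrix and pathway genes were counted in the same way, against the 9.88% and 18.8% of all genes with an E2-side or vehicle-side region. Of 24 matrix genes, 4 had an E2-side region (Col12a1, Eln, Sparc and Tnc) and 7 a vehicle-side region, with 2 each at Col5a1, Col6a3 and Tnc. These made up 0.969% and 2.42% of the 413 regions near matrix genes. TGF-beta genes had 3 and 10 of 20, and 0.589% and 3.14% of their 509 regions were of each kind. WNT genes had 3 (Fzd1, Fzd7 and Fzd8, all receptors) and 13 of 22, with 0.506% and 2.70% of 593 regions. Hedgehog genes had 4 and 5 of 11, with 2.27% of 220 regions on each side, and Gli2 had 2 E2-side and 0 vehicle-side regions. Cell cycle genes had 4 (Ccne1, Ccnd2, Cdkn1a and Cdkn1b) and 3 of 20, with 1.98% and 1.19% of 253 regions. Of the PLAG family, 0 and 1 of 3 had such a region (0% and 3.85% of 26 regions), and of 12 keratins 0 and 3 (0% and 4.84% of 62 regions).

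The study's own list of 58 genes raised with E2 was chosen partly on these libraries, so it is not independent evidence, and it was drawn up against E2 plus fulvestrant rather than against vehicle. Of these, 15 had an E2-side region and 22 a vehicle-side region, and 0.957% and 1.97% of their 1672 regions were of each kind, against 1.11% and 2.35% near all genes. Promoters of 0 of the 58 were peak-bearing in at least 2 E2 and no vehicle libraries, and 2 were so in the reverse. Over all protein-coding genes these shares were 1.33% and 4.09%, so the list was near that level. Its counterpart for E2 plus fulvestrant, of which 33 of 34 symbols could be matched, had 6 and 15 genes, with 0.854% and 2.56% of 820 regions.

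Single members of the E2 list showed how the calls were made up. Piezo2, a mechanosensitive channel gene, had 1 E2-side region called in all 3 E2 libraries, with 6, 7 and 5 tags, and 2 vehicle-side regions. Its locus held 14, 7 and 3 peaks with E2 and 8, 35 and 6 with vehicle, and vehicle replicate 2 was far above the rest. Ltbp1, which encodes a TGF-beta binding protein of the matrix, had 1 E2-side and 2 vehicle-side regions, with counts of 12, 5 and 1 against 13, 26 and 6. The E2-side region was intergenic, 98810 bp from the Ltbp1 start site. Bases around the summit were 100% repeat-masked in each of these regions. Nrp2, a semaphorin receptor gene, had 1 E2-side and 2 vehicle-side regions, with counts of 7, 3 and 4 against 6, 14 and 11. The adhesion gene Ncam1 had neither, at 12, 8 and 6 against 10, 17 and 8, nor did Adamts6 (3, 3 and 1 against 2, 3 and 2), Fbln7 (4, 2 and 3 against 4, 7 and 3) or Ccn3 (1, 2 and 1 against 1, 1 and 1). At all of these loci the treatments overlapped. Twsg1 had 2 E2-side and 0 vehicle-side regions, while Kif26b had 1 and 4.

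**Figure D5:**
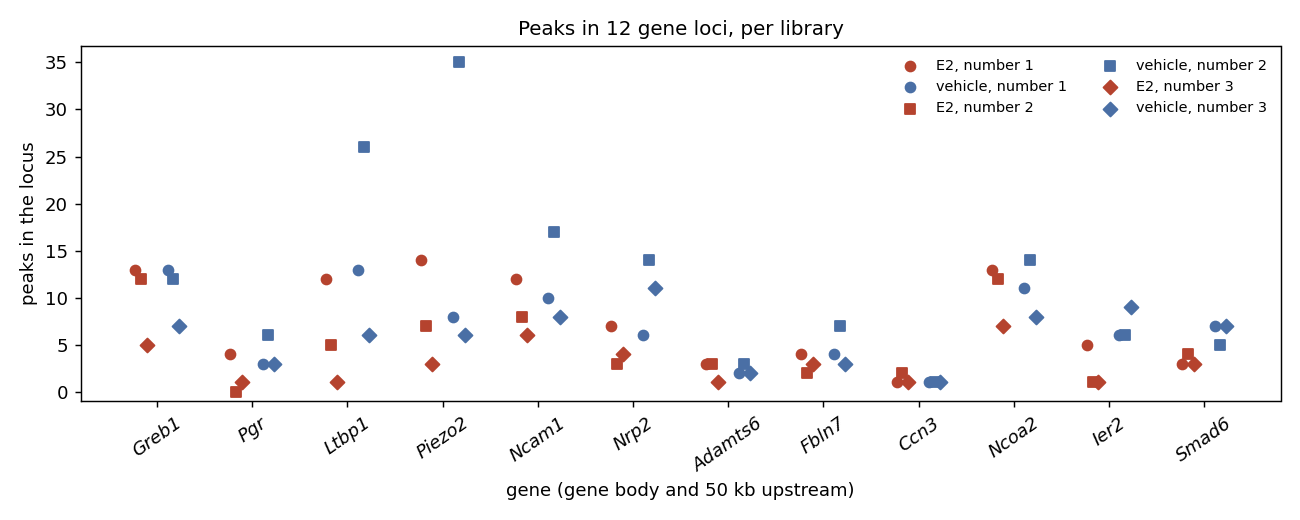
Peaks in each of 12 gene loci (the gene with 50 kb upstream) for E2 (red) and vehicle (blue) libraries, with the replicate number given by the marker shape. Only at Ier2 and Smad6 of these 12 do the treatments not overlap, and vehicle replicate 2 lies highest at Ltbp1 and Piezo2.

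The labelled cell type was checked on promoters. Of 13 fibroblast markers, 12, 4 and 2 had a promoter peak in E2 replicates 1, 2 and 3 and 9, 6 and 10 in vehicle replicates 1, 2 and 3. Skeletal muscle markers had 3, 3 and 1 of 11 with E2 and 3, 4 and 2 with vehicle. As shares, fibroblast markers stood at 92.3%, 30.8% and 15.4% with E2 and 69.2%, 46.2% and 76.9% with vehicle, against 60.5%, 19.5% and 12.3% and 54.9%, 35.9% and 51.9% of all protein-coding genes. In vehicle replicate 2, endothelial markers (3 of 6) and epithelial markers (3 of 5) had higher shares than fibroblast markers, and E2 replicates 2 and 3 listed few promoters of any kind. Endothelial markers had at most 3 of 6, immune markers 3 of 7, epithelial markers 3 of 5 and adipocyte markers 2 of 5 in any of the 6 lists. Of fibroblast markers, 3 had an E2-side and 7 a vehicle-side region (1.39% and 4.63% of 216 regions). For skeletal muscle markers these were 0 and 5 (0% and 4.27% of 117 regions). Over all genes the region shares were 1.11% and 2.35%. Vehicle-side regions also lay near 3 of 7 immune, 2 of 5 epithelial, 1 of 5 adipocyte and 0 of 6 endothelial markers.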

How the data were processed

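Peak lists of 6 ATAC-seq libraries (3 E2, 3 vehicle) were analysed, with 6 fulvestrant libraries read for recurrence. Per the study's methods and the submitters' notes, reads were trimmed with Trimmomatic 0.39, aligned to mm10 with Bowtie2, freed of duplicates with Picard 2.21.4, and peaks were called per library with MACS2. The deposited lists give the authors' ratio of pileup to local background (fold enrichment), −log10 p-values, −log10 q-values and a score of 10 times −log10 p. Read counts in peaks were not analysed here, so no count model was run. Whole pileups in tags were recovered from fold and −log10 p for over 99.99% of peaks with −log10 p under 15 (tolerance 0.002), which gives relative depth only.

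Peaks were merged and compared by presence, percentile rank, exact permutation or sign-flip tests, and limma 3.58.1 (R 4.3.3) with Benjamini-Hochberg adjustment, in Python 3.11.15. Sequence and start sites came from GRCm38 and GENCODE M21. Scripts were tested on simulated data. Members and gene lists were chosen with earlier results of these data known. Named were the 10 best-ranked regions and 5 genes with most regions per side, listed genes with at least 2 regions of a side, the 5 regions with the smallest limma p per direction, and Greb1, Pgr, Ltbp1, Piezo2, Ncam1, Nrp2, Adamts6, Fbln7 and Ccn3. Others were chosen after their values were seen, and a few items under this rule are not reported here.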

Additional observations from a re-analysis of the deposited data

How the results depend on the processing

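Depth, at 3 to 5 tags for a listed peak, limits every call of absence. Counts on the E2 and vehicle sides were 301 and 821 with q of 0.05 or less, 1023 and 1152 with the 20000 highest peaks per list, and 1078 and 3100 in numbers 2 and 3 alone. Leaving out 1 library gave 892 to 5496 and 1662 to 18687. The sides held 2058 and 5092 without mostly repeat-masked regions, an alternative chosen after the data were seen. The held-out difference turned from -0.26 to 0.21 with q of 0.05 or less, the cause was not tested, and ran from -0.39 to -0.01 with 1 number left out. The difference in the fulvestrant libraries ran from -0.16 to 0.49 without 1 library. Other settings kept direction, and no setting gave a rank call (0 in all, smallest adjusted p 0.649 by limma, without vehicle replicate 2).

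Ranks of same-numbered libraries did not deviate together in every pair (correlations of 0.15, 0.02 and -0.16 for numbers 1, 2 and 3), so the number was not taken to pair the libraries, although number 1 stood apart on Y chromosome peaks and in the sign of the fulvestrant-library ratios. With the replicate block, peak number differed by -0.56 (exact sign-flip test, p = 0.50), the fulvestrant libraries by 0.14 (exact sign-flip test, p = 0.25), and limma called 0 regions, with 41 at an unadjusted p under 0.05.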

Other observations

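Replicate number 1 had few Y chromosome peaks, 36 with E2 and 34 with vehicle, whereas numbers 2 and 3 had 1148 and 1015 with E2 and 1063 and 936 with vehicle. With E2 plus fulvestrant, numbers 1, 2 and 3 had 22, 1067 and 854, and with fulvestrant alone 35, 897 and 1077. The paper reports male mice, and the cause of the split was not tested. On the X chromosome, 55 E2-side and 82 vehicle-side regions were found among 3567, which is 1.54% and 2.30%. Regions called in E2 replicates 2 and 3 alone lay on the X chromosome in 3.42% of cases, against 1.14% for each of the other pairs of E2 libraries and 1.18% of all regions. Among the autosomes, the E2-side share of one-sided regions ran from 26.2% on chromosome 9 to 36.9% on chromosome 14, and it was 40.1% on the X chromosome.

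Tandem runs of units of 1 to 6 bases, at least 18 bases long, lay within 100 bp of the summit in 17.9% of the 162 regions listed by every E2 library but by no vehicle library (95% Wilson interval 12.8% to 24.5%) and in 8.10% of the 247 of the mirrored kind (5.30% to 12.2%). They were found in 17.1% of the regions called in all 6 libraries and in 7.03% of all regions. Over the whole sides the shares were 8.02% of 3342 E2-side regions (7.15% to 8.99%) and 8.36% of 7060 vehicle-side regions (7.73% to 9.03%), with overlapping intervals. This was searched after the sequences had been read, and the intervals cover counting error only. Of the 3342 E2-side regions, 88 were called in at least 4 of the 6 fulvestrant libraries, and of the 7060 vehicle-side regions 46 were. The share of all merged regions called so often there was not computed, so neither count can be set against it.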
